A study of Homo sapiens with 9 samples.

Results

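The comparison described here is that of open chromatin in FBXO42 wild-type and FBXO42 knockout cells labelled Jurkat, a human line derived from a T cell leukaemia. Open chromatin was mapped by ATAC-seq, in which a transposase cuts and tags DNA that is not covered by nucleosomes, and each library was deposited as a list of called intervals with a summit, the position of highest read pileup. All intervals on chromosomes 1 to 22 and X were taken, which gave 31883 intervals in the wild-type list and 20091 in the knockout list, together 51974 of the 174109 intervals in the 6 lists of the series. The rest of the series maps the transcription factor RBPJ by CUT&Tag in HEK293T cells, a line of embryonic kidney origin. The wild-type group carries the genotype label wild type, and the knockout group FBXO42 KO. Knockout was made with lentiviral CRISPR constructs, and the sources used here give neither the guide nor whether wild-type cells carried a control construct or the knockout cells are 1 clone or a pool. Each genotype has 1 library, so no spread between replicates exists, no test between genotypes was made, and every 95% interval below (Clopper-Pearson for shares) covers counting error only.

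FBXO42 is an F-box protein, the substrate-binding part of an SCF ubiquitin ligase, a complex that attaches ubiquitin to chosen proteins. The series asks how RBPJ binds DNA and what state the chromatin is in when FBXO42 is absent. Promoters of widely expressed genes are held open in most cell types, often at CpG islands that carry sites for SP, ETS, NRF1 and NFY factors. Distal open sites, many of them enhancers, differ more between cell types.

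Promoter windows from the 3 outcomes that the lists allow are shown first, since the gene results below rest on such windows. They run from 250 bases before to 50 after a RefSeq start (GRCh38.p14), 5′ to 3′ on the gene's strand. They belong to the genes with the strongest summits that lie inside such a window in each outcome, leaving out the multi-copy NBPF family, and FBXO42 is added. Capitals mark matches on either strand. The letters GGGCGG are the core bound by SP factors, called a GC box. The letters CCAAT are bound by the factor NFY. The letters CCGGAA are the core of many ETS factor sites. The letters TGCGCA lie within the site of NRF1. In SEC11A a GC box and an ETS core overlap in a single capital stretch. FBXL19 (chr16:30922601-30922900, plus strand) and SEC11A (chr15:84716090-84716389, minus strand) were called in both lists. PCBP2 (chr12:53451852-53452151, plus strand) and RPL41 (chr12:56116383-56116682, plus strand) were called in the wild-type list only. TOR1AIP2 (chr1:179877754-179878053, minus strand) and CITED1 (chrX:72306821-72307120, minus strand) were called in the knockout list only. FBXO42 (chr1:16352431-16352730, minus strand) was called in both.
FBXL19: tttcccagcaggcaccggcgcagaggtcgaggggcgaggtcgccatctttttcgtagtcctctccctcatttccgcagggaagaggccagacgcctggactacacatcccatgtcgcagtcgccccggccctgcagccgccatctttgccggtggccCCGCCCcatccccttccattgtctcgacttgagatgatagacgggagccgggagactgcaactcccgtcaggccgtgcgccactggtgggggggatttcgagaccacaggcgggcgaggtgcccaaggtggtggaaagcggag
SEC11A: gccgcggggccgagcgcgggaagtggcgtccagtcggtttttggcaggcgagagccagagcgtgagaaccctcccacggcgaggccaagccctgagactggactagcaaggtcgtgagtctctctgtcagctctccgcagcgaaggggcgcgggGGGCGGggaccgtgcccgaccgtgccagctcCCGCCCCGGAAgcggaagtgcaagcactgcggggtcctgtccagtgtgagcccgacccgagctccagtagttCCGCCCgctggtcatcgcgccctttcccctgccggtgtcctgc
PCBP2: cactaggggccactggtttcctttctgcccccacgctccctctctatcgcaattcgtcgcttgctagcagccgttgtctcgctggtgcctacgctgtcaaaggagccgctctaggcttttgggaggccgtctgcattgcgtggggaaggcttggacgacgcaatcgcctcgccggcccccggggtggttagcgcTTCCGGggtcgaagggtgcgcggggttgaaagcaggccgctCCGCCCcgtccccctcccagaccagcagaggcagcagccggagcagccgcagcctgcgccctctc
RPL41: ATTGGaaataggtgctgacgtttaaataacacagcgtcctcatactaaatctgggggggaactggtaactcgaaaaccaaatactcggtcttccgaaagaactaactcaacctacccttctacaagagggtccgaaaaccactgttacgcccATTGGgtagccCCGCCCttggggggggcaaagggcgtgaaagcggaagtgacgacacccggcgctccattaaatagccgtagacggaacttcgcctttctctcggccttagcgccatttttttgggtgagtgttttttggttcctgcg
TOR1AIP2: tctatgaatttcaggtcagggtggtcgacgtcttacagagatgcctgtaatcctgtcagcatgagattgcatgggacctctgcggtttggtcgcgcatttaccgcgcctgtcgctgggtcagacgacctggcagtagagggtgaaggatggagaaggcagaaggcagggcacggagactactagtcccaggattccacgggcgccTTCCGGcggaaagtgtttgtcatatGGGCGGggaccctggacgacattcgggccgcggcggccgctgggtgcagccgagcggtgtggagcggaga
CITED1: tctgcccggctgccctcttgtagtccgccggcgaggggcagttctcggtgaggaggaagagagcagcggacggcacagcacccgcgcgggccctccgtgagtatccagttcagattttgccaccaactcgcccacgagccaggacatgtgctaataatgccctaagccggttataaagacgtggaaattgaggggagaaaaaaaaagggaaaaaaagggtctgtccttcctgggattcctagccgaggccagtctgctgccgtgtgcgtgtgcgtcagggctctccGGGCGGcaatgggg
FBXO42: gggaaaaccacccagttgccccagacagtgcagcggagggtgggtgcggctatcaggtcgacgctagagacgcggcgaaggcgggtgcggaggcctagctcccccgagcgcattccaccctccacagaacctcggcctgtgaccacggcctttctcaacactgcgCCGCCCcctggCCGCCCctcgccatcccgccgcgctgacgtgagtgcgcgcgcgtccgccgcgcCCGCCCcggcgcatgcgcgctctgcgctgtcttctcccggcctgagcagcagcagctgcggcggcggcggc

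The letters do not sort the 7 windows by outcome: each of them held at least 1 GC box, from FBXL19 in both lists to CITED1 in the knockout list only. SEC11A, PCBP2 and TOR1AIP2, one of each outcome, held an ETS core, and CCAAT occurred in the window of RPL41 alone.

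The knockout library was the shallower. The genome background, the reads expected at an average position, was 0.417 reads in wild type and 0.184 in knockout, a ratio of 0.442. The median summit pileup was 12 reads (quartiles 7 and 21) in wild type and 8 (4 and 13) in knockout, and 13.6% and 34.3% of the intervals rested on 5 reads or fewer. Intervals covered 18.2 Mb in wild type and 9.86 Mb in knockout. Depth, genotype and library cannot be told apart with 1 library each, so the sections below set values side by side at equal pileup or after scaling wild type to the knockout depth.

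The label was checked on markers of T cells, B and myeloid cells, and kidney and epithelial cells. Of 18 T cell markers, RAG1, a recombinase gene of developing lymphocytes, had a promoter interval in both lists, with 37 reads in wild type and 21 in knockout. ZAP70, a kinase gene of T cell receptor signalling, had 8 reads in wild type and no knockout interval, and was called in neither list at a −log10 q of 5 or more or at equal list length. None of the other 16 had a promoter interval, among them CD3D, CD3E, CD3G and CD247, genes of signalling subunits in the T cell receptor complex. CD2, CD7, CD28, BCL11B and TAL1 had no interval within 10 kb of the gene in either list. SIX2, a transcription factor gene of kidney development, had 45 wild-type reads and 26 knockout reads at its promoter. PAX2 with 31 reads and WT1 with 17 had promoter intervals in wild type alone. With windows of 2.5 kb PAX2 was called in both lists, and with 250 bp WT1 in neither; within 10 kb of PAX2 knockout had 2 intervals of up to 17 reads. Among the 11 B cell and myeloid markers only SPI1 had one, with 21 and 10 reads. Within 10 kb of the gene, 11 of the 18 T cell markers had an interval in wild type and 10 in knockout, beside 7 and 8 of the 11 B cell and myeloid markers and 8 and 7 of the 13 kidney and epithelial markers. The promoter intervals therefore do not bear out the T cell label, and the cells are called here only by it. FBXO42 itself had a promoter interval of 957 bp with 21 reads in wild type and of 665 bp with 13 reads in knockout. An open promoter does not check the knockout, since the sources used here do not place the edit.

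Most strong intervals were called in both lists, and most weak ones in 1 list. By an overlap of at least 1 bp, 12810 wild-type intervals were shared, a background share of 40.2% (39.6 to 40.7), and 12890 knockout intervals, 64.2% (63.5 to 64.8). In the wild-type list the shared percentage was 3.10% at 3 to 5 summit reads, 12.4% at 6 to 9, 30.4% at 10 to 14, 50.2% at 15 to 19, 73.8% at 20 to 29, 90.3% at 30 to 39 and 97.8% at 40 or more. Only 36 wild-type intervals with 40 reads or more, 20 of them at promoters, lacked a knockout interval. In the knockout list 16.0% were shared at 3 to 5 reads and 76.9% at 6 to 9. Of the 1802 knockout intervals with 20 reads or more, 7 lacked a wild-type interval.

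When pileup and local background of each wild-type interval were scaled to the knockout depth, 74.0% still reached the lowest −log10 p of the knockout list. Of these 23597 intervals, 51.7% were shared (51.1 to 52.4), against 7.31% of the 8286 that did not reach it. Among the 19073 wild-type-only intervals, 40.3% fell below that limit and 59.7% reached it. Scaled values carry no sampling scatter, so an interval just above the limit could be missed by counting error alone.

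Promoters were shared more than other sites. An interval was placed at a promoter when it came within 1 kb of a start of a protein-coding gene, and otherwise inside or between genes. In wild type 65.5% of 11386 promoter intervals were shared (64.7 to 66.4), 22.9% of those inside genes and 29.3% of those between genes. For knockout intervals the corresponding values were 94.2%, 41.6% and 47.1%. Promoter intervals had a wild-type median of 22 reads and the others 9, so the shares were also taken at equal pileup. At 20 to 29 wild-type reads 75.9% of promoter intervals (74.4 to 77.4) and 69.6% of the others (67.4 to 71.8) were shared. At 30 to 39 reads the values were 92.4% and 83.5%, and at 40 or more 98.4% and 95.4%. The gap was widest in the weakest knockout intervals, of which 57.0% at promoters (51.5 to 62.3) and 13.9% elsewhere (13.04 to 14.7) were shared at 3 to 5 reads.

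**Figure D1:**
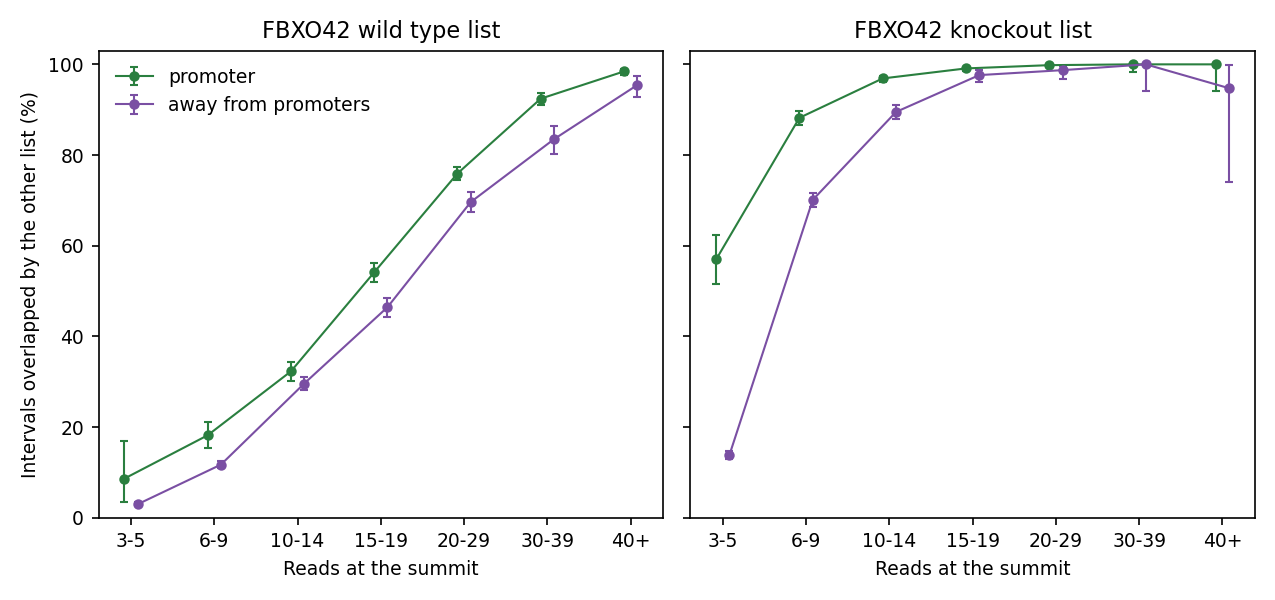
Percentage of intervals overlapped by the other list (vertical axis) against reads at the summit (horizontal axis, bins), for the wild-type list on the left and the knockout list on the right. Points are promoter intervals (green) and intervals away from promoters (purple), with 95% counting intervals. Wild-type promoter intervals ran from 8.64% at 3 to 5 reads to 98.4% at 40 or more, and knockout intervals of 15 reads or more were nearly all shared.

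Shared intervals were mostly promoters and unshared ones mostly were not. Promoters made up 58.3% of the shared wild-type intervals, 20.6% of the wild-type-only intervals and 6.46% of the knockout-only intervals. Promoters made up 35.7% of the whole wild-type list and 39.6% of the knockout list, a difference of 3.88 percentage points. This order depends on list length: with the wild-type list cut to its 20091 intervals of highest −log10 q, the difference, knockout minus wild type, was -9.30 percentage points.

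Where the summit lay within a promoter also differed by class. Among intervals at stranded starts, the summit was within 250 bp of the nearest start in 69.7% of 6249 shared wild-type intervals and 69.03% of 6306 shared knockout intervals. The value was 48.1% for 2940 wild-type-only intervals and 40.7% for 334 knockout-only intervals. All 4 classes had a trough in the 100 bp upstream of the start between higher bins on either side. In the bin from 0 to 100 bp downstream lay 20.9% of shared wild-type summits and 11.8% of wild-type-only summits, and in the bin from 500 to 600 bp 1.25% and 3.98%.

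**Figure D2:**
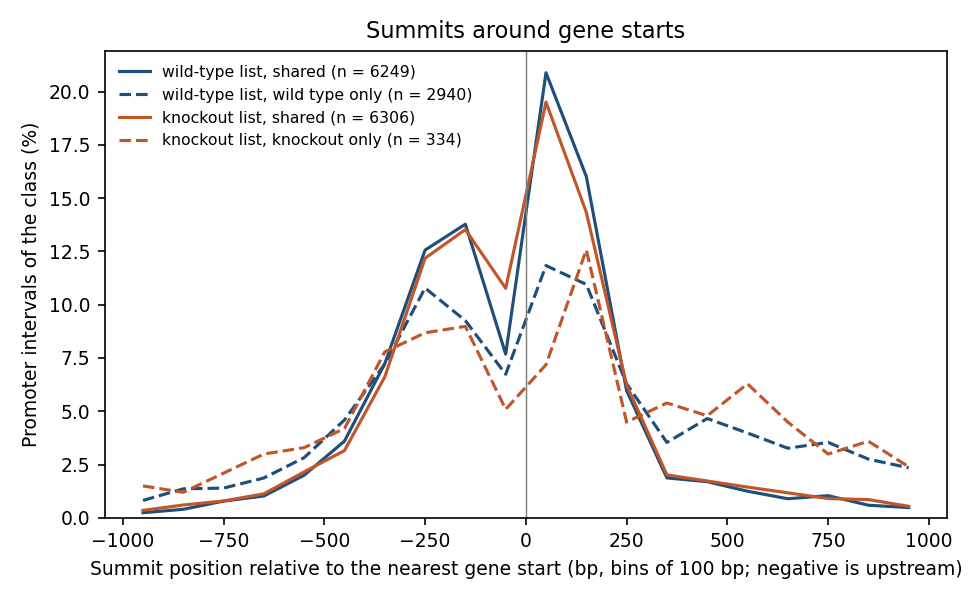
Position of summits relative to the nearest stranded gene start (horizontal axis in bp, bins of 100 bp, negative upstream) as a percentage of the promoter intervals of each class (vertical axis). Solid lines are shared and broken lines unshared intervals, blue for the wild-type list and orange for the knockout list. The shared classes peak close to the start, with 69.7% and 69.03% of summits within 250 bp, and the unshared classes are flatter, with 48.1% and 40.7%.

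Knockout intervals were narrower. The median width was 486 bp in wild type (482 to 489) and 423 bp in knockout (420 to 426), and 3012 wild-type intervals (9.45%) but 676 knockout intervals (3.36%) spanned 1 kb or more. Shared intervals were the wide ones: 720 bp in wild type and 509 bp in knockout, against 394 bp for wild-type-only and 351 bp for knockout-only intervals. The shortest intervals measured 252 and 263 bp. Width followed pileup, yet the class difference was present at equal pileup: at 20 to 29 wild-type reads, shared intervals had a median of 775 bp and wild-type-only intervals 530.5 bp. Local background at those intervals was 2.26 reads for shared and 2.76 for wild-type-only intervals, and its part in the result was not tested.

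**Figure D3:**
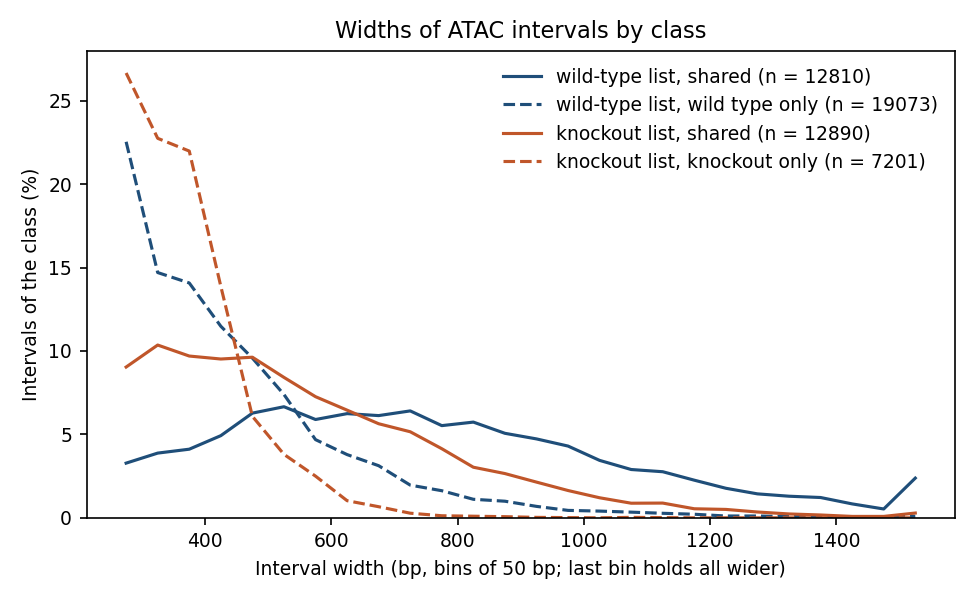
Percentage of the intervals of each class (vertical axis) by interval width (horizontal axis in bp, bins of 50 bp, the last bin holding all wider intervals). Solid lines are shared and broken lines unshared intervals, blue for wild type and orange for knockout. The unshared classes are concentrated below 500 bp, with medians of 394 and 351 bp, and the shared wild-type class extends furthest to the right.

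The same sites were narrower in the knockout list. In 12583 pairs in which 1 wild-type interval met 1 knockout interval, the median widths were 718 and 511 bp and the median ratio 0.767 (quartiles 0.586 and 0.962). The knockout interval was the narrower in 79.4% of pairs and lay wholly inside the wild-type interval in 49.4%. Summits were a median of 99 bp apart (quartiles 39 and 204). A further 129 wild-type intervals were met by 2 knockout intervals each, and 49 knockout intervals by 2 wild-type intervals.

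Summit pileup at paired intervals approached the ratio of the backgrounds as depth grew. The median of knockout to wild-type reads was 0.522 over all pairs (0.519 to 0.526). By wild-type pileup it went from 1.0 at 3 to 5 reads through 0.615 at 10 to 14 and 0.467 at 30 to 39 to 0.451 at 40 or more, close to the background ratio of 0.442. A weak wild-type interval can be paired only where knockout also passed the caller's limit, so that selection bounds the ratios of the low bins from below. Promoters and other sites had similar medians at 40 reads or more, 0.452 (0.444 to 0.463) and 0.44 (0.422 to 0.465). Among the 7460 pairs with at least 20 wild-type reads, 124 (1.66%) were more than 2-fold above the background ratio and 99 (1.33%) more than 2-fold below it.

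**Figure D4:**
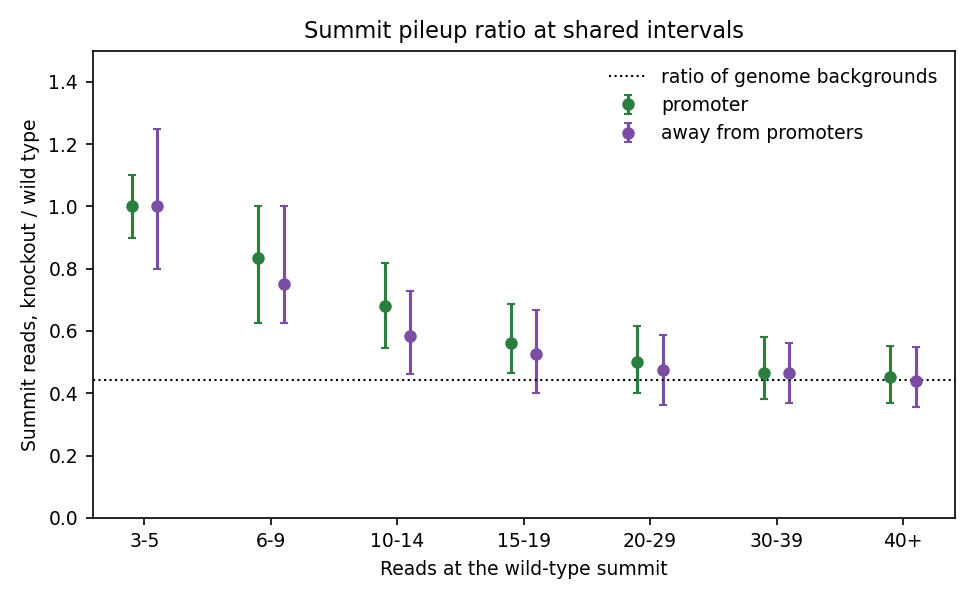
Knockout summit reads divided by wild-type summit reads (vertical axis) at paired intervals, by reads at the wild-type summit (horizontal axis, bins). Points are medians and bars quartiles, green for promoters and purple for other sites, and the dotted line is the ratio of genome backgrounds, 0.442. Medians approach that line from above, reaching 0.452 and 0.44 in the bin of 40 reads or more.

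The extreme pairs were few, and the counting intervals of their ratios were wide. At the promoter of SLC30A1, a zinc exporter gene, wild type had 30 reads and knockout 43, a ratio of 1.43 with a counting interval of 0.879 to 2.37. CDC73, a subunit gene of the PAF1 complex that travels with RNA polymerase II, had 30 and 39 reads (ratio 1.3, 0.787 to 2.17). PRCC, a gene fused to TFE3 in some renal tumours, had 37 and 48. At the low end CMTM6, which encodes a protein that stabilises PD-L1, had 42 and 6 reads (ratio 0.143, 0.0496 to 0.338). FANCA, a Fanconi anaemia DNA repair gene, had 33 and 5, and YIPF5, a Golgi protein gene, 45 and 7. The counting intervals of the 3 high ratios lie above 0.442 and those of the 3 low ratios below it. All of them were picked as the extremes of 7460 pairs.

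The strongest shared promoters were those of TLE4, a Groucho corepressor gene, with 122 wild-type and 55 knockout reads, and ABCB8, a mitochondrial transporter gene, with 119 and 47. FBRS had 109 and 68, NBPF1, of a multi-copy family whose near-identical copies may share reads, 104 and 34, and FBXL19, an F-box gene, 102 and 56. SEC11A, a signal peptidase subunit gene, had 93 and 24, the divergent pair BBIP1 and SHOC2 91 and 39 in a single interval, and PPP1R3F 90 and 37. All of these had fewer reads in knockout, by factors on both sides of the background ratio of 0.442.

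The strongest wild-type-only promoter intervals held 44 to 57 reads. TBC1D4, a regulator of glucose transporter traffic, had 57. TMEM276 had 51 and SGK1, a kinase gene, 49. The latter 2 genes held a weaker, separate knockout interval at the gene, of 14 and 11 reads. PCBP2, an RNA-binding protein gene, USE1, a SNARE gene of Golgi-to-ER transport, and RPL41, a ribosomal protein gene, had 45 each and no knockout interval within 1 kb, although RPL41 had one within 2.5 kb. One interval of 44 reads lay at both HOXB3 and HOXB5, the latter not called in either list with windows of 250 bp. For TBC1D4, TMEM276, USE1, HOXB3 and HOXB5 no stranded start was at hand, so either annotated end of the gene was used. The widest wild-type-only promoter intervals were at SLC35G2 (1933 bp, 14 reads), ETV1, an ETS factor gene (1853 bp, 28 reads), the common start region of LNX2 and POLR1D (1779 bp, 26 reads), ITGB8, an integrin gene (1648 bp, 21 reads), and ABHD6 (1631 bp, 17 reads). ETV1 held a separate knockout interval of 424 bp and 10 reads at the promoter, and SLC35G2 was called in neither list at a −log10 q of 5 or more.

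Knockout-only promoter intervals were weaker. The highest were at SPRY2, an inhibitor gene of receptor tyrosine kinase signalling, with 22 reads, ANO8 with 21 and TOR1AIP2 with 19. INSIG1, a gene that restrains sterol synthesis, and DNAJB14, a cochaperone gene, had 18 each, and SEH1L, a nuclear pore gene, ATF1, a CREB family factor gene, and RNPEPL1 had 17 each. SPRY2, INSIG1 and ATF1 were open in wild type as well, at a separate interval of 40, 26 and 20 reads. The other 5 were called in knockout alone within 1 kb of the start. Of these, ANO8 and RNPEPL1 were called in both lists with windows of 2.5 kb, RNPEPL1 in neither with 250 bp and ANO8 in neither at a −log10 q of 5 or more. A wild-type-only interval of 55 reads also lay inside ANO8.

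Away from promoters, the strongest shared intervals lay at a small RNA gene and a pseudogene. The highest, chr17:43251590-43251995 in knockout with 188 reads and chr17:43251590-43252015 in wild type with 273, overlapped an annotated snRNA gene, LOC124904138. The next, chr1:633880-634173 with 267 and 237 reads, overlapped MTATP6P1, a nuclear copy of mitochondrial sequence, so reads from mitochondrial DNA cannot be told apart there. In wild type only, chrX:115888168-115888438 held 93 reads at DANT1 and DANT2, which lie at a tandem repeat whose copies may share reads. Also in wild type only were an interval inside ANO8 with 55 reads and one inside IFFO1 with 49. In knockout only, the highest were one between genes nearest to NEXMIF with 43 reads, one inside MAZ with 26 and one inside FOSB with 24.

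Wild-type intervals were more clustered than knockout intervals. Another interval of the same list lay within 5 kb for 16.5% of wild-type intervals (16.1 to 16.9) and 6.92% of knockout intervals (6.58 to 7.28). With the wild-type list limited to the 20091 intervals of highest −log10 q, it was 12.48% (12.02 to 12.9). Runs of 4 or more intervals joined by such gaps numbered 23 in wild type, 8 in the limited wild-type list and 1 in knockout. The wild-type runs held 97 intervals, of which 49 (50.5%) were shared.

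At equal pileup, the shared percentage was lower for wild-type intervals with a close neighbour. At 20 to 29 reads, 52.6% of 1343 intervals with a neighbour (49.9 to 55.3) and 81.2% of 3825 without one (79.9 to 82.4) were shared, and at 30 to 39 reads 77.1% and 94.03%. Intervals with a neighbour had a higher local background at 20 to 29 reads, 3.47 against 2.12 reads, and were narrower, 538 against 773 bp, while the promoter share was 65.7% and 65.6%. The part of background and width in the result was not tested. Wild-type-only promoter intervals had a neighbour in 37.6% of cases and shared promoter intervals in 18.1%. Away from promoters the order was reversed, at 11.3% of wild-type-only and 13.8% of shared intervals. Over all wild-type intervals the values were close, at 16.7% and 16.3%.

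The 3 runs of the 23 without a shared interval lay at HOX genes and at MYC. At HOXD8 and HOXD9, patterning genes of the HOXD cluster, 4 wild-type intervals of 29, 36, 26 and 28 reads over 8.59 kb had no knockout counterpart. A run over HOXC4, HOXC5 and HOXC6 had 31, 21, 27 and 36 reads, again none shared. At MYC, a growth-promoting transcription factor gene, intervals of 36, 24, 21 and 20 reads were all wild type only. These 3 runs were picked after their values were seen, and the other 20 lay at a range of genes. At TRIM41, a ubiquitin ligase gene, 3 of 5 intervals were shared, those with 44, 52 and 74 reads, and the 2 of 28 reads were not. KAT6B, an acetyltransferase gene, shared 3 of 5, and the region of BICDL2, HCFC1R1 and TNFRSF12A 1 of 5, its strongest at 40 reads. Another run of 5 intervals, between BTN3A2 and H4C8, shared 3. The single knockout run, at MAZ, PAGR1 and PRRT2, had 19, 26, 24 and 37 reads, and 3 of the 4 wild-type intervals there, of 32, 72 and 61 reads, were shared.

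At the level of genes, 11406 of 19974 protein-coding genes had a promoter interval in wild type and 8680 in knockout. Both lists held 8427 genes, a background of 42.2%, wild type alone 2979 (14.9%) and knockout alone 253 (1.27%). Of the genes called in wild type, 73.9% were also called in knockout (73.1 to 74.7), and of the 7211 with at least 20 wild-type reads 89.0%. The classes below are read against these values, with no test of a class.

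**Figure D5:**
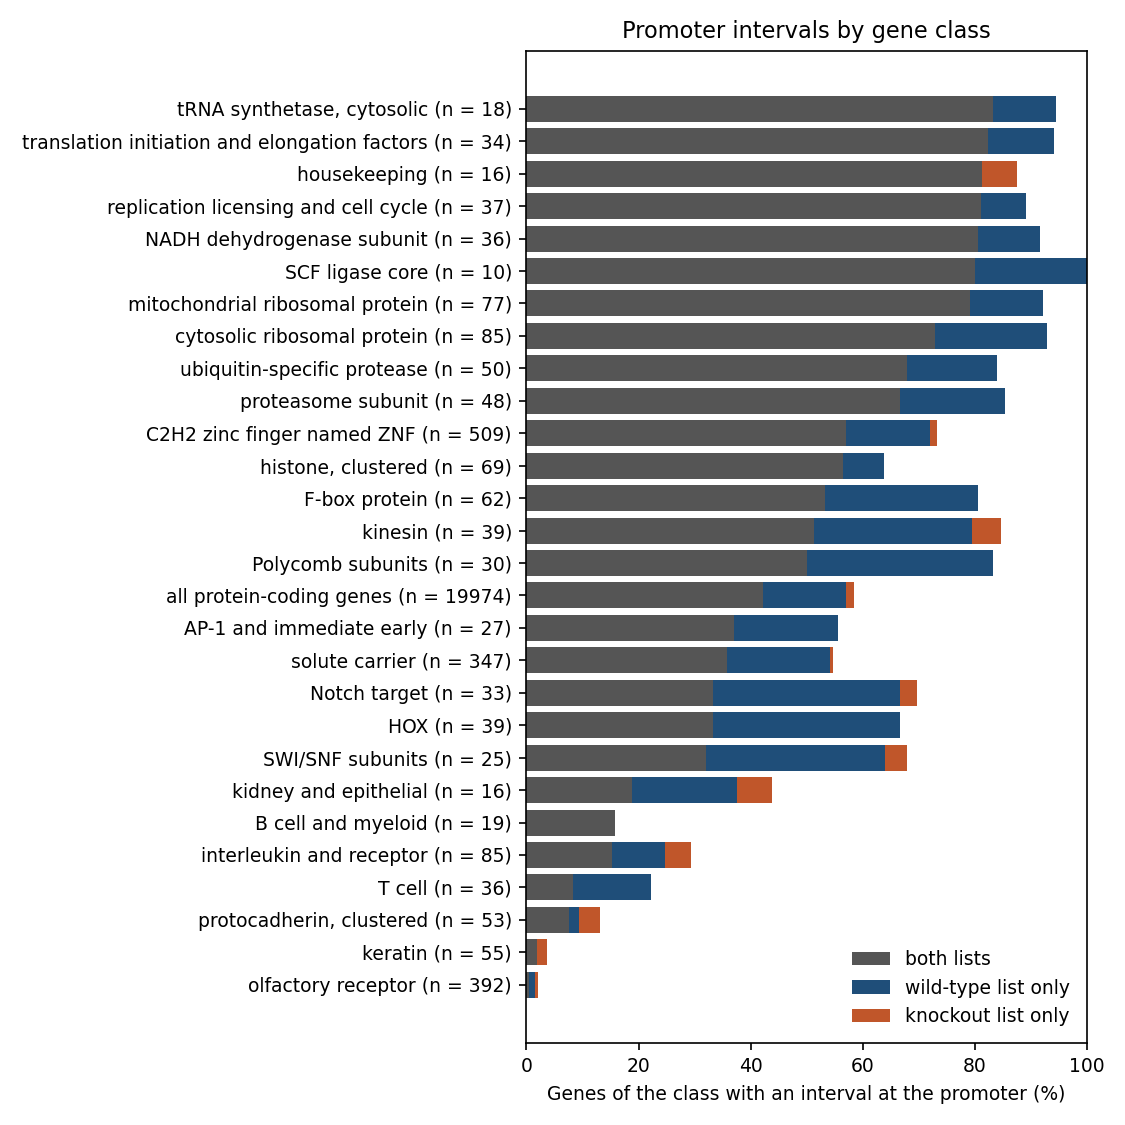
Percentage of the genes of each class (vertical axis, n genes) with a promoter interval in both lists (grey), in the wild-type list only (blue) or in the knockout list only (orange). Over all protein-coding genes the values are 42.2%, 14.9% and 1.27%. Translation, cell cycle and respiratory chain genes lie at the top, and HOX, Notch target, Polycomb and SWI/SNF genes have the longest blue segments, 32% to 33.3%.

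Genes of growth and protein synthesis were mostly open in both lists. For cell cycle and replication licensing genes 30 of the 33 called in wild type were called in knockout, with ORC6, an origin recognition gene, at 88 and 35 reads, RPA2 at 61 and 32 and CDK2 at 56 and 25. MCM5 (23 reads), CCND2 (22) and MCM2 (17) were called in wild type alone. Translation factor genes numbered 28 of 32, without EEF2, EIF4H, EIF2S2 and 1 other, and cytosolic tRNA synthetase genes 15 of 17, without GARS1 and MARS1. Mitochondrial ribosomal protein genes numbered 61 of 71 and NADH dehydrogenase subunit genes of the respiratory chain 29 of 33. Cytosolic ribosomal protein genes, at 62 of 79 (78.5%), and proteasome subunit genes, at 32 of 41 (78.05%), were nearer to the background of 73.9%, although their wild-type medians were 29 and 26 reads against 23 for all genes called. With at least 20 wild-type reads, 89.0% of all genes were called in knockout, and these classes lay near that share. Cell cycle genes stood at 92% (23 of 25), translation factors at 92.3% and tRNA synthetases at 86.7%. Mitochondrial ribosomal protein genes stood at 94.4%, NADH dehydrogenase genes at 92.9%, and cytosolic ribosomal protein and proteasome genes at 86.2% each. All 13 housekeeping genes called in wild type were also called in knockout, and HPRT1 was called with 5 reads in knockout alone. Clustered histone genes numbered 39 of 44, but these lay at 30 wild-type and 26 knockout intervals, since neighbouring histone genes share one.

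HOX genes, Notch targets and chromatin regulator genes had lower shares called in knockout than all genes together, without a test of the difference. HOX genes, which set position along the body axis, were called in knockout in 13 of 26 cases, at 11 distinct knockout and 22 wild-type intervals. Their wild-type median was 27 reads, above the 23 of all genes. HOXA10 had 44 and 19 reads and HOXA9 43 and 28, while HOXA5, at 37 reads, was called in wild type alone, as were HOXB3 and HOXB5. Of the HOX genes with at least 20 wild-type reads, 11 of 23 (47.8%, 26.8 to 69.4) were called in knockout, against 89.0% of all such genes. After scaling to the knockout depth, 25 of the 26 still reached the lowest knockout −log10 p, and 12 of those 25 (48%) were called in knockout. Over all protein-coding genes this was 8317 of 10837 (76.7%). The local background at these strong HOX intervals was 5.56 reads, against 2.90 over all such genes, and its part in the result was not tested.

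Notch targets showed similar counts. Of 22 called in wild type, 11 were called in knockout, and of the 13 with at least 20 wild-type reads 7 (53.8%, 25.1 to 80.8). ID1, an inhibitor of DNA-binding factors, had 35 and 19 reads, HES4, a repressor gene, 32 and 15, and HEY2, another repressor gene, 26 and 13. ID2 with 42 reads, MYC with 36 and HIVEP3 with 30 were called in wild type alone, and ID3 with 13 reads in knockout alone. Local background at the strong Notch target intervals was 4.05 reads. For SWI/SNF chromatin remodeller subunits the count was 8 of 16, with SS18 at 47 and 16 reads and SMARCC1 at 34 and 7, without SMARCD3 (29 reads), BCL7B (22) and DPF2 (19) among others. For Polycomb repressor subunits it was 15 of 25, with RBBP4 at 47 and 25, PCGF1 at 47 and 19 and JARID2 at 46 and 17. With at least 20 wild-type reads, 11 of 12 Polycomb genes and 7 of 9 SWI/SNF genes were called in knockout, against 89.0% of all such genes. The Polycomb and SWI/SNF genes called in wild type alone had medians of 16.5 and 14.5 reads. After scaling to the knockout depth, 15 of 23 Polycomb genes (65.2%) that reached the lowest knockout −log10 p were called in knockout. For SWI/SNF genes it was 8 of 16 (50%), and for all genes 76.7%. The part of pileup in these counts was not tested.

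Among genes of ubiquitin ligases, the machinery FBXO42 belongs to, SCF core genes lay above the background of 73.9% and F-box genes below it. Both counting intervals, 44.4 to 97.5 for SCF core and 51.2 to 78.8 for F-box genes, contained that background. No test was made. The SCF core genes called in wild type were also called in knockout in 8 of 10 cases (80%), with RBX1 at 63 and 13 reads and CAND1 at 54 and 26, and CUL1 (17 reads) and FBXL5 (19) in wild type alone. F-box genes were called in knockout in 33 of 50 cases (66%), and those with at least 20 wild-type reads in 28 of 35 (80.0%, 63.1 to 91.6), against 89.0% of all such genes. FBXW11 had 77 and 34 reads and FBXL15 64 and 33, while FBXO30, at 36 reads, FBXL8 and FBXO4 were called in wild type alone. Ubiquitin-specific protease genes, which remove ubiquitin, were called in 34 of 42 cases, without USP24 (43 reads) and USP32 (31) among others. With at least 20 wild-type reads it was 27 of 29 (93.1%), against 89.0% of all such genes. Immediate early genes were called in 10 of 15, with EGR1 at 73 and 41 reads and JUN at 62 and 48, without KLF6 (28), JUNB (24) and NR4A1 (20).

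Large families gave a base line. ZNF-named zinc finger genes were called in knockout in 290 of 367 cases (79.02%), and with at least 20 wild-type reads in 181 of 189 (95.8%). Solute carrier genes were called in 124 of 188 (65.96%), and with at least 20 wild-type reads in 94 of 105 (89.5%). For kinesin genes the counts were 20 of 31 and 15 of 19. The shares of all genes were 73.9% and 89.0%. Interleukin and receptor genes were called in 13 of 21. Families silent in most tissues had few promoter intervals in either list: 6 and 4 of 392 olfactory receptor genes, 1 and 2 of 55 keratin genes and 5 and 6 of 53 clustered protocadherin genes. Within the longer lists of cell type genes, CXCR4 (25 and 12 reads) and RUNX1 (14 and 10) were open in both, and GATA3 (28), MYB (26) and SATB1 (17) in wild type alone. CD68 (23 and 17), CEBPA (19 and 10) and CDH2 (33 and 10) were open in both lists, and VIM (29) in wild type alone. KRT18 had 7 reads in knockout alone. With windows of 2.5 kb VIM was called in both lists, and with 250 bp MYB in neither and CDH2 in 1. At a −log10 q of 5 or more RUNX1 and KRT18 were called in neither and CDH2 in 1, and at equal list length RUNX1 in 1.

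Promoter windows overlapped by intervals of both lists held ETS and CCAAT letters more often than windows overlapped in wild type only. Their GC content was lower. Each window was classed by the intervals that overlapped it, so windows of 1 gene can fall in different classes. Across 22132 windows of 300 bases, 21.2% held CCGGAA, 34.6% CCAAT, 56.3% GGGCGG and 9.89% TGCGCA on either strand. Among 7322 windows overlapped in both lists the ETS core occurred in 36.6% (35.5 to 37.7), and among 2874 windows overlapped in wild type only in 23.9% (22.4 to 25.5). For the CCAAT box the values were 42.3% and 29.5%, for the NRF1 core 16.4% and 11.5%, and for the GC box 72.6% and 72.4%. The median number of CpGs was 26 and 28, and 9 in windows overlapped in neither list. Median GC content was 64.7% in windows overlapped in both and 68.3% in those of wild type only. At 20 to 29 wild-type reads it was 65% and 69%, with 26 and 29 CpGs. The part of GC content in the motif shares was not tested. At 20 to 29 wild-type reads the ETS core occurred in 38.4% (36.5 to 40.4) and 25% (22.1 to 28.1) and the CCAAT box in 39.9% and 31.5%. At 10 to 14 reads the ETS core occurred in 34.0% and 25.3%. The 275 windows overlapped in knockout only held the ETS core in 21.8% (17.1 to 27.2) and CCAAT in 26.5%. The core TGGGAA of RBPJ sites occurred in 23.5% of the windows overlapped in both, 20.1% of those in wild type only and 22.7% of all. TATAAA occurred in 4.43% and 5.29%, TGACGTCA of CREB family sites in 3.84% and 2.47%, and TGAGTCA of AP-1 sites in 1.99% and 2.89%. Windows of 1 gene can overlap, and a match is a description of the letters, not of binding.

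Among genes of small RNAs, intervals within 250 bp of the gene were more frequent at tRNA genes than at snRNA or miRNA genes. RNA polymerase III transcribes tRNA genes. Of 443 tRNA genes 222 had one in wild type and 180 in knockout, 170 in both. For snRNA genes, which encode spliceosomal RNAs among others, it was 41 and 38 of 154, and all 38 were in both lists. For miRNA genes it was 117 and 76 of 1911 with 66 in both. As a base line, 10213 of the 19974 protein-coding genes had a wild-type interval within 250 bp of the start. Of these, 73.2% were called in knockout. For tRNA genes the shares were 50.1% in wild type and, of those, 76.6% in knockout. They lay close to the shares of protein-coding genes, and no test was made. Both tRNA and snRNA genes have near-identical copies, so reads may be placed at the wrong copy. Long noncoding RNA genes whose start window lay away from protein-coding windows numbered 8840, of which 871 were open in the wild-type list, 540 in the knockout list and 462 in both, 53.04% of the 871.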

How the data were processed

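Each of both ATAC libraries came as a narrowPeak list, 1 list per library. Bowtie2, Trim Galore, deepTools and MACS2 are named in the submitters' processing notes, as is the build hg38. Versions, settings and calling limits are not given in these sources. In the deposited lists, the authors' fold is the ratio of summit pileup to local background, with a p-value and a q-value per interval as −log10. The deposited score is the −log10 q on a larger scale, cut to a whole number. These values were used within a list only.

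From the fold and the −log10 p, whole summit reads and the local background were recovered under a Poisson model for 99.99% of wild-type and 100% of knockout intervals, with a tolerance of 0.1% on the −log10 p. Each list's lowest background served as its genome background. Read totals were not used here.

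Starts came from RefSeq promoter windows on GRCh38.p14 (22132 starts of 15812 genes). For the other 4162 of the 19974 protein-coding genes either annotated end was used. Coordinates are 1-based. The lists of genes and markers and the choice of comparison were made with earlier results of these data known. Named promoters are the 8 of highest pileup per class and the 5 widest wild-type-only ones. Named distal sites come from the 5 of highest pileup per class, named class members are up to 3 per outcome, and named runs are those with most intervals. A few items that these rules select are not reported here. The runs without a shared interval, the extreme pairs and the comparison at 20 wild-type reads or more within gene classes were chosen after values were seen. Overlap, gap and pileup code was tested on simulated data. Alternatives were overlap rules, −log10 q limits, list length, window and gap sizes. Python 3 with numpy, scipy and pandas was used.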

Additional observations from a re-analysis of the deposited data

Results flagged for a closer look

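Outside chromosomes 1 to 22 and X, which no comparison used, the wild-type list held 157 intervals and the knockout list 93. They are named here because they are signal outside the main measurement. Of these, 4 and 5 lay on mitochondrial DNA.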

How the results depend on the processing

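The shared percentage moved most with the choice of intervals. When both lists were held to a −log10 q of 5 or more it was 41.3% of wild-type and 91.6% of knockout intervals. With the wild-type list as long as the knockout list it was 58.3% and 58.8%. With wild-type pileup scaled to reach the lowest knockout pileup it was 49.4% and 62.8%, and with scaled −log10 p, a choice made after seeing the data, 51.7% and 61.2%. With a reciprocal overlap of 50% it was 30.5% and 48.4%, and with the summit inside an interval of the other list 35.3% and 60.7%. Knockout minus wild type in median width was -63 bp, and -184 bp at equal list length. In clustering it was -9.60 percentage points, -16.4 at the wider gap, -6.58 at 2 kb, -5.55 at equal length and -7.98 at the stricter −log10 q. The promoter share differed by 3.88 points, by 2.95 with windows of 2.5 kb and 14.6 at the stricter −log10 q, and reversed to -9.30 at equal length. The shared percentage of promoter minus other wild-type intervals was 39.4 points, 45.5 at 250 bp, 36.5 at 2.5 kb, 30.4 at the stricter −log10 q and 28.8 at equal length. Genes called in wild type were also called in knockout in 61.4% at the stricter −log10 q and 78.7% at equal length. The median pileup ratio was 0.477 at 20 wild-type reads or more. The other 10 of 37 alternatives stayed within the counting interval of the main value. The cause of these shifts was not tested. For 48 genes the number of lists with a promoter interval was followed, but not which list. These were the strongest and widest promoters, FBXO42, and the called members of the T cell and kidney lists. For 28 of the 48 that number was the same in all 4 alternatives run on genes. Other named class members were not followed singly. No paired analysis was possible because each genotype has 1 library, and for the same reason no library could be left out.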

Other observations

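Open sites were set beside the 4 lists of RBPJ binding, which come from HEK293T cells and not from the cells labelled Jurkat. Of the shared promoter intervals of the wild-type list, 89.2% overlapped at least 1 of the 4 RBPJ lists. The value was 67.7% for wild-type-only promoter intervals and 53.3% for knockout-only ones. Away from promoters it was 62.5% of shared, 24.3% of wild-type-only and 9.53% of knockout-only intervals. Shared intervals have more reads than unshared ones, and no comparison at equal pileup was made here.

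The number of knockout intervals per wild-type interval ranged over chromosomes from 0.572 on chromosome 17 to 0.700 on chromosome 14. The share of wild-type intervals that knockout intervals overlapped was lowest on chromosome 18, at 29.6%, and highest on chromosome 19, at 51.1%. Promoters made up 29.8% and 48.5% of the wild-type intervals on these chromosomes.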
